A study of Mus musculus with 12 samples.

Results

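Oligodendrocyte lineage genes were followed in differentiated mouse neurospheres, as 9 genes in 2 classes. The 5 precursor genes were Olig1, Olig2, Sox10, Pdgfra and Cspg4, and the 4 myelin genes were Cnp, Mbp, Mag and Mog. Members were all noncontrol probes whose RefSeq accession belongs to 1 of these genes, which gave 11 of the 55681 probes on the array and 9 of the 20887 genes that could be named. Each gene had 1 probe except Mbp, which had 3, and the Pdgfra probe was printed as 10 spots.

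Neurospheres were grown from the telencephalon of C57BL/6 embryos at embryonic day 13 and differentiated for 7 days without growth factors. WT spheres carried no transgene. APP_WT spheres were untreated and carried the APPswe and PSEN1dE9 transgenes, which are directed to neurons of the central nervous system and model familial Alzheimer's disease. BK_APP and HOE_APP spheres carried the same transgenes and received 1 µM bradykinin (BK), the peptide ligand of the kinin B2 receptor, or 1 µM HOE-140, an antagonist of that receptor, on days 0, 3 and 6. No treated WT spheres were analysed here, so both treatments were seen only on the transgenic background. RNA came from whole cultures, in which fewer cells of a type and less RNA per cell cannot be told apart. Transgenic spheres were hybridized against WT, and each treatment against untreated transgenic spheres, on 4 two-color arrays a comparison, 2 in each dye orientation. On the HOE-140 arrays 1 treatment is given for either channel, so that the direction of that comparison is likely only, taken from the first channel, the titles and the swapped design. The correlations between same-numbered arrays, given with the processing below, have the signs of that direction.

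Oligodendrocyte precursors arise in the embryonic forebrain first from ventral progenitors and later from dorsal ones. Olig1 and Olig2, basic helix-loop-helix factors, and Sox10, a factor of the SOX family, specify the lineage, and Pdgfra and Cspg4 (NG2) are the surface proteins by which precursors are recognized. Cells that leave this stage lose both surface proteins and switch on enzymes and proteins of the myelin sheath. Cnp is an enzyme of oligodendrocyte cytoplasm and uncompacted myelin, Mbp compacts the sheath, Mag sits on the membrane next to the axon, and Mog lies on the outermost surface and appears late.

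The 2 genes that passed the test below, Olig2 and Cspg4, did so in opposite directions. Their promoters are therefore shown, as RefSeq places them on GRCm38.p6, from 250 bases before the annotated start to 50 bases after it, 5′ to 3′ on the strand of the gene. Capitals mark any match to the E-box CAGCTG or CAGATG or to the SOX motif ACAAAG or ACAATG on either strand.
Olig2, chr16:91225300-91225599, plus strand: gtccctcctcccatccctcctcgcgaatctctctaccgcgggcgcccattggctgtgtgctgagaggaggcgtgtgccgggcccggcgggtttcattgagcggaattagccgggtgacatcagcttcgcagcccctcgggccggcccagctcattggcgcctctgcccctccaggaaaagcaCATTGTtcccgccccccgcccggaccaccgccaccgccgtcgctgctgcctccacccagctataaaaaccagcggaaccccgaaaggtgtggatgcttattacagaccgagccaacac
Cspg4, chr9:56864854-56865153, plus strand: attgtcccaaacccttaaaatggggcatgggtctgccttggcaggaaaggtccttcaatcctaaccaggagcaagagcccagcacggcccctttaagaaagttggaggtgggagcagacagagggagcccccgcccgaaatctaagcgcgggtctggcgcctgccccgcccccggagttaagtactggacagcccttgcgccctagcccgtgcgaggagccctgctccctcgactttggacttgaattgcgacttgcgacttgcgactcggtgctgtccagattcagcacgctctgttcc
The Olig2 window held 1 SOX motif, which began 68 bases before the start, and no E-box. The Cspg4 window held none of these motifs. The Olig2 window was richer in G and C (65.0%) than that of Cspg4 (60.0%), and the median over 32851 promoters of this length was 52.7%. Over all of them 28.6% held either SOX motif and 30.6% either E-box. Promoters were searched for 6 of the 9 members, as Olig1 and Sox10 had no entry and Mbp was left out of the search. Of these 6, 3 (Olig2, Cnp and Mag) held a SOX motif in at least 1 entry and 1 (Pdgfra) an E-box. These are counts of genes, while the shares above are of single entries, and Mag had 3 entries, 2 of them with a SOX motif. These matches are descriptions of the letters only.

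All 9 genes were expressed. The probe used for each of them, the brightest, was well above background in both channels of all 12 arrays, and no spot of a member was saturated. Over the arrays, 51.2% to 60.3% of spots were well above background in either channel. The levels of each condition, after normalization of the single channels, lay close together for every gene, as the plot of channel levels shows. They are on a log2 scale, and they are compared within a probe only. The median level of Olig2 was 11.24 in 4 WT channels, 10.94 in 12 APP_WT channels and 11.01 in 4 HOE_APP channels, and the 4 BK_APP channels ran from 10.92 to 11.07. WT channels of Olig2 ran from 11.03 to 11.33 and APP_WT channels from 10.80 to 11.12, so the groups overlapped. For Cspg4 the medians were 8.55 in WT, 8.69 in APP_WT, 8.59 in BK_APP and 8.73 in HOE_APP. The APP_WT channels of Cspg4 spread from 8.43 to 9.22 and covered most of the WT range of 8.34 to 8.69. For Mag the medians were 11.80 in HOE_APP, 11.99 in BK_APP, 12.10 in APP_WT and 12.12 in WT, and the ranges of all 4 conditions overlapped. For Mog they were 8.94 in HOE_APP, 9.02 in BK_APP, 9.15 in APP_WT and 9.17 in WT, again with overlap throughout. The place of HOE_APP in these orders rests on its likely direction. With the channels of its arrays exchanged its medians were 12.02 for Mag and 9.08 for Mog, both above those of BK_APP, and 10.92 for Olig2 and 8.67 for Cspg4.

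**Figure D1:**
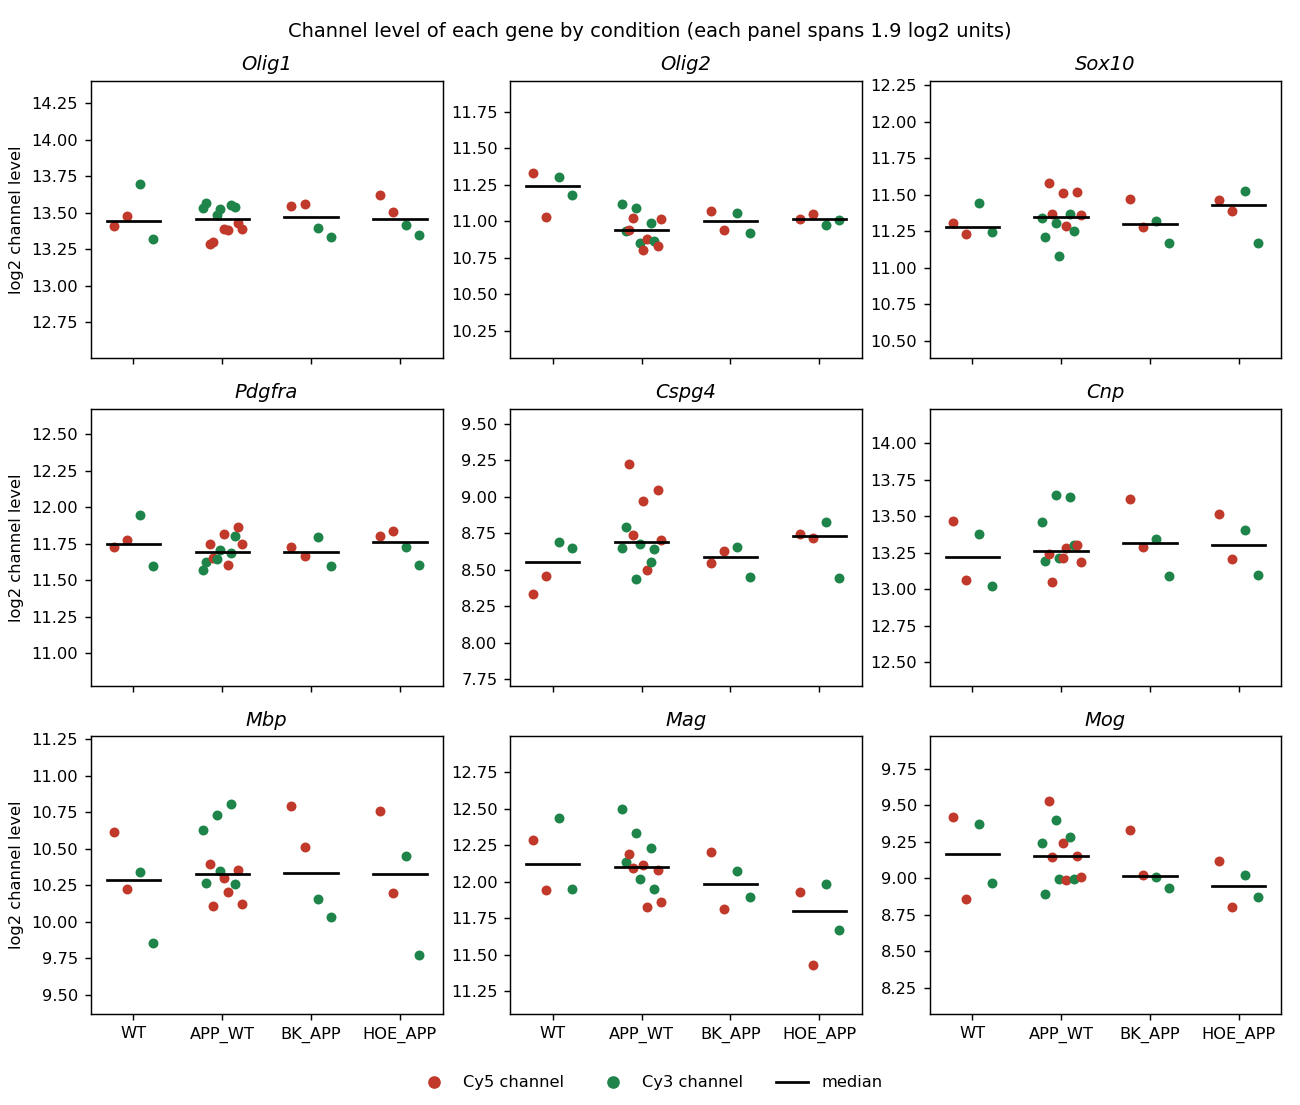
Channel levels (log2, y axis) of the 9 genes in WT, APP_WT, BK_APP and HOE_APP (x axis). Each point is 1 channel of 1 array, colored by dye, bars are medians, and every panel spans the same range, so that the wider spread of Mbp and the overlap of the conditions in every gene can be compared. HOE_APP channels are drawn in their likely direction.

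The first comparison asked how the lineage genes of transgenic spheres stood against those of WT spheres. Of the 9 members 2 passed the test, which is 22.2% of them, where 18.5% of all 29361 expressed probes did (11.6% higher and 7.00% lower). The same 2 had an unadjusted p below 0.05, as had 31.8% of all expressed probes. On all 4 arrays 3 members, Olig2, Cspg4 and, by its brightest probe, Mbp, had 1 sign, as had 27.0% of probes, and 3 members had a fitted value below 0, against 48.8% of probes. Cspg4 was higher and Olig2 was lower in APP_WT. The other 3 precursor genes and all 4 myelin genes did not pass. Values below are log2 ratios of the first-named over the second-named condition, given for replicates 1 to 4, and the test was limma's moderated test with Benjamini-Hochberg adjustment over all expressed probes at 0.05.

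Cspg4, the NG2 proteoglycan, had log2 ratios of 0.31, 0.33, 0.53 and 0.09. All 4 arrays lay above 0, and replicate 3 was the highest. The fitted log2 fold change was 0.32 (SE 0.07), a fold of 1.25 with a 95% confidence interval of 1.11 to 1.39, at an adjusted p of 0.0125 in limma. Without replicate 3 the log2 fold change was 0.21, 1.5 times smaller, and the limma adjusted p 0.0873. With the processed signals of the scanner software it was 0.24, at an adjusted p of 0.0952 in limma.

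Olig2, a factor required for the specification of the lineage, had log2 ratios of −0.21, −0.10, −0.36 and −0.16, all below 0 and lowest in replicate 3. Its log2 fold change was −0.21 (SE 0.06), a fold of 0.867 with a 95% confidence interval of 0.790 to 0.951, at an adjusted p of 0.0370 in limma. This call was lost with the replicate number as a block, where the limma adjusted p was 0.0625. It was also lost without replicate 1, 2 or 3, where the limma adjusted p ran from 0.0631 to 0.196.

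Olig1, which acts with Olig2 in the lineage, had log2 ratios of 0.12, 0.09, −0.41 and −0.03. Its arrays fell on both sides of 0, and the one far below was replicate 3 (log2 fold change −0.06, 95% confidence interval −0.19 to 0.08). Pdgfra, the receptor for platelet-derived growth factor A, had −0.15, −0.15, −0.20 and 0.05 as means over its 10 spots. Replicates 1 to 3 were thus below 0, and the log2 fold change of −0.11 had an interval of −0.23 to 0.00 and an adjusted p of 0.165 in limma. Sox10, which turns on myelin genes, had 0.03, −0.02, 0.14 and 0.12, and its log2 fold change was 0.07 (−0.04 to 0.17).

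The fitted values of the 4 myelin genes all lay just above 0, that of Mbp by its brightest probe only. Mbp had log2 ratios of 0.02, 0.04, 0.06 and 0.25 and a log2 fold change of 0.09 (95% confidence interval −0.06 to 0.24). Mag had 0.21, 0.19, −0.25 and 0.14 and a log2 fold change of 0.07 (−0.08 to 0.22), with replicate 3 alone below 0. Mog had −0.18, 0.03, 0.16 and 0.18 and a log2 fold change of 0.05 (−0.07 to 0.16). Cnp had −0.01, 0.13, −0.14 and 0.03, and its log2 fold change was 0.00 (−0.14 to 0.14). The spread between the arrays of a myelin gene (SD 0.11 to 0.22) was larger than any of these 4 values.

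**Figure D2:**
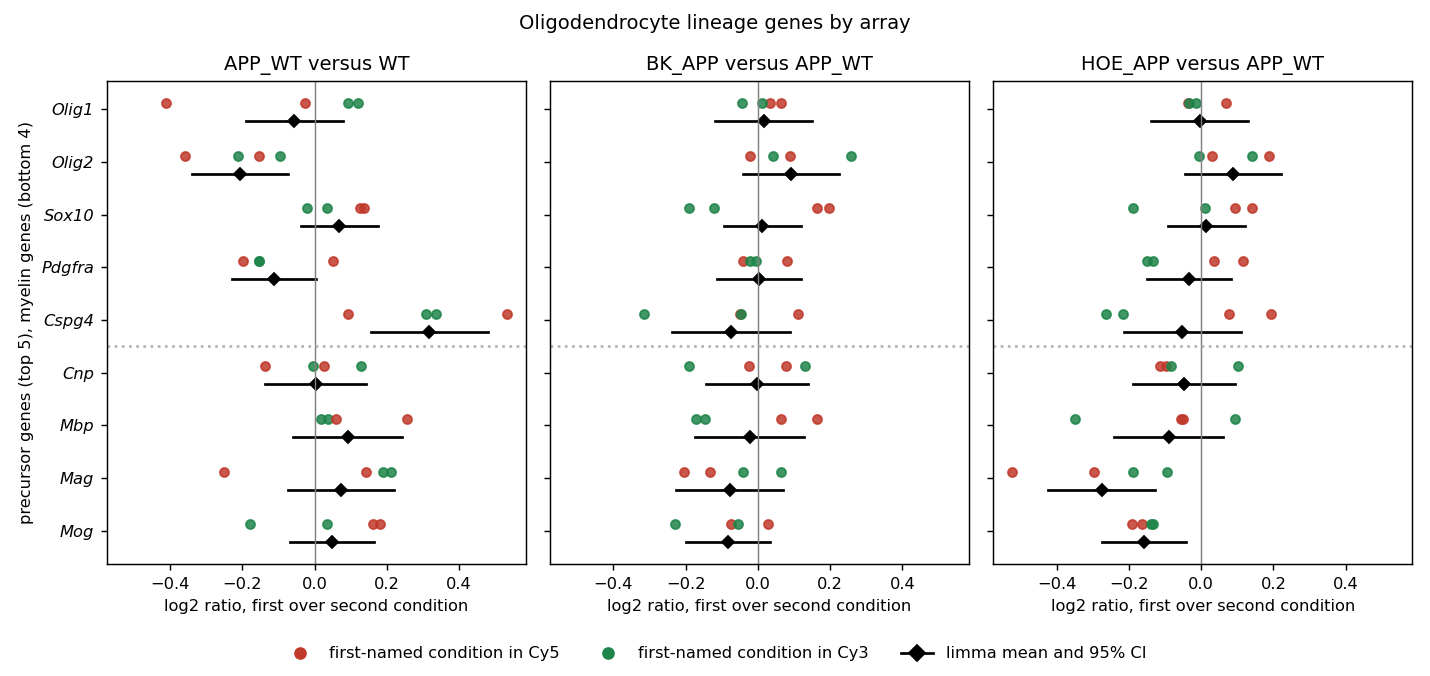
Log2 ratios of the 9 genes (y axis) on each of the 4 arrays of the 3 comparisons (x axis, log2 of the first over the second condition), with points colored by the dye of the first-named condition. Diamonds and lines are the limma mean and its 95% confidence interval. Cspg4 and Olig2 in APP_WT versus WT have intervals off 0 and pass the adjusted test, and Mag and Mog in HOE_APP versus APP_WT have intervals off 0 but do not.

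Cspg4 also marks pericytes, and Pdgfra is also made by fibroblasts, so the markers of both cell types are given beside these values. Of 8 pericyte markers 4 were expressed, and Rgs5, Kcnj8, Abcc9 and Des were well above background on no WT or APP_WT channel of this comparison. Pdgfrb, the pericyte receptor for platelet-derived growth factor B, was lower in APP_WT (log2 fold change −0.45, adjusted p 2.11e-04 in limma). The mean log2 level of the expressed pericyte markers ran from 8.06 to 8.37 in WT and from 7.80 to 8.52 in APP_WT. Of 8 fibroblast markers 7 were expressed, of which Lum (−0.62) and Dcn (−0.25) were lower and none was higher, and Col1a1 was at −0.04. Their mean level ran from 7.90 to 8.34 in WT and from 7.56 to 8.24 in APP_WT.

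Markers of microglia and astrocytes lay further from 0 than most lineage genes. Of all expressed probes 11.6% were called higher and 7.00% lower. Of 11 expressed microglia markers 10 were higher in APP_WT. The median log2 fold change of the microglia markers was 1.39, with Cx3cr1 (2.31) and Aif1 (2.21) among the highest, and Itgam at 0.11 was not called. Their mean level ran from 7.79 to 8.06 in WT and from 9.19 to 9.43 in APP_WT. Of 10 astrocyte markers 8 were higher, among them Gjb6 (0.79) and Gfap (0.69), and the lowest value was that of Sox9 (0.14). Their mean level ran from 11.85 to 12.05 in WT and from 12.21 to 12.49 in APP_WT. Of 12 neuronal markers 2 were higher, with Syt1 at 0.43, and 4 lower, with Nefm at −0.79. Progenitor markers were 3 higher and 1 lower of 10, from Fabp7 (−0.17, not called) to Vim (0.97). Among genes of the ventral telencephalon, from which the first precursors come, 5 of 8 were lower, with Dlx1 lowest at −0.59 and Lhx8 at 0.20, not called. Dorsal genes were 2 higher and 2 lower of 8, from Neurod2 (−0.48) to Eomes (0.58). Of 4 expressed endothelial markers 1 was higher (Flt1, 0.40) and Kdr was at 0.04, and of 7 expressed Schwann cell and neural crest markers 3 were higher, up to Pmp22 at 0.91, with Prx lowest at 0.07. Among the pericyte markers Anpep was highest at 0.21 and among the fibroblast markers Col6a3 at 0.42, neither of them called. The part of these cell types in the lineage genes' values was not tested.

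The wider lineage was read from other precursor and myelin genes. Of 20 other genes of precursors and committed cells 19 were expressed, with a median log2 fold change of 0.09 in APP_WT versus WT, against 0.00 over all expressed probes. The calls below stand beside 18.5% of all expressed probes called, 11.6% higher and 7.00% lower. Higher were 3, Matn4 (0.37), C1ql1 (0.29) and Ptprz1 (0.20), which encode an extracellular matrix protein, a secreted C1q-like protein and a receptor phosphatase, and none was lower. Gpr17, a receptor of committed cells, stood at 0.21 and was not called, nor were Nkx2-2 (−0.08), Sox8 (−0.14), Ugt8a (−0.10) and, at the low end, Cacng4 (−0.17). Of 20 other myelin and mature genes 18 were expressed, with a median of 0.10. Higher were Trf (0.97), Plekhb1 (0.91) and Apod (0.43), and Gal3st1, which makes sulfatide, was lower (−0.24). Trf encodes the iron carrier transferrin and Apod a lipid carrier, and both are also made by cells outside the lineage. The structural myelin genes Mobp (−0.03) and Cldn11 (−0.02) were not called, and Myrf, the main regulator of myelin genes, and Hapln2 were not expressed.

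Of 22 signals and receptors that act on the lineage, 19 were expressed in these spheres. In APP_WT 2 were higher and 3 lower, with a median of 0.00, where 18.5% of all expressed probes were called. Cntf (1.04), a cytokine, and Igf1 (0.44), a growth factor, were higher. Hes5 (−0.63), a Notch target, Id2 (−0.53), an inhibitor of helix-loop-helix factors, and Jag1 (−0.20), a Notch ligand, were lower. Id4, of the same family as Id2, stood at 0.12 and was not called. Pdgfa, the ligand of Pdgfra, was at 0.14 with an adjusted p of 0.124 in limma, and Erbb3 was not expressed.

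The second comparison asked what BK did to the transgenic spheres. No member passed, and none had an unadjusted p below 0.05. Over all expressed probes 0% passed in limma and 4.47% had an unadjusted p below 0.05, while 535 probes (1.84%) met the SAM and rank product tests named in the study's methods. No member kept 1 sign on all 4 arrays, which 9.72% of probes did. The smallest adjusted p of a member was 0.967 in limma. The 9 intervals together ran from a fold of 0.849 to one of 1.17. In size the fitted values had a median of 0.02, against 0.05 over all expressed probes.

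Olig2 had log2 ratios of −0.02, 0.09, 0.26 and 0.04, with 3 replicates above 0 and a log2 fold change of 0.09, the highest of the members. Cspg4 had 0.11, −0.05, −0.31 and −0.05, with 3 replicates below 0 and a log2 fold change of −0.07. Sox10 had 0.16, 0.20, −0.19 and −0.12. Its sign followed the dye, above 0 where BK_APP was in Cy5 and below 0 where it was in Cy3, and the log2 fold change was 0.01. Mbp split in the same way, at 0.06, 0.16, −0.15 and −0.17. Pdgfra, with 0.08, −0.04, −0.02 and −0.01, and Olig1, with 0.06, 0.03, 0.01 and −0.04, stayed near 0 on every array.

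The fitted values of the myelin genes were all just below 0 under BK, that of Mbp by its brightest probe only. Mog had log2 ratios of −0.07, 0.03, −0.23 and −0.05 and a log2 fold change of −0.08 (95% confidence interval −0.20 to 0.03). Mag had −0.13, −0.21, −0.04 and 0.06 and a log2 fold change of −0.08 (−0.23 to 0.07). Cnp had −0.03, 0.08, 0.13 and −0.19. Each of these genes had arrays on both sides of 0.

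The dye term matters for these small values. Over all expressed probes, arrays of opposite dye correlated at −0.32 to −0.11 in BK_APP and −0.32 to −0.19 in HOE_APP, and at 0.24 to 0.46 in APP_WT versus WT. Every mean here is balanced over both orientations, and the model held a dye coefficient for each comparison. That coefficient was above 0 in all 3 comparisons for Sox10, Pdgfra and Mbp, and below 0 in all 3 for Mag.

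The last comparison asked what blocking the B2 receptor did. Again no member passed in limma, where 0% of expressed probes did, and Mag and Mog had an unadjusted p below 0.05, as had 5.03% of all expressed probes (2.72% with a value below 0). Both were below 0 on all 4 arrays, as were 5.00% of the probes measured on all of them, while 10.7% kept 1 sign in either direction. The direction is the likely one given above, and with the sign turned each log2 ratio and log2 fold change of HOE_APP versus APP_WT would change its sign.

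Mag had log2 ratios of −0.30, −0.52, −0.09 and −0.19 in HOE_APP versus APP_WT. Replicate 2 was lowest, and none reached 0. The log2 fold change was −0.28 (SE 0.07, 95% confidence interval −0.42 to −0.13), with an unadjusted p of 0.00186 and an adjusted p of 0.924 in limma. It was called by SAM and rank products together (both unadjusted, threshold 0.05), as 2.31% of probes were. Mog had −0.16, −0.19, −0.13 and −0.14, with an SD of 0.03 between arrays, and a log2 fold change of −0.16 (−0.27 to −0.04, unadjusted p 0.0127, adjusted p 0.924 in limma). Mbp had −0.05, −0.06, 0.09 and −0.35 and Cnp −0.11, −0.10, 0.10 and −0.08. In both genes replicate 3 alone was above 0, and the log2 fold changes were −0.09 (−0.24 to 0.06) and −0.05 (−0.19 to 0.09).

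The precursor genes were spread around 0 under HOE-140. Olig2 had 0.03, 0.19, 0.14 and 0.00 (log2 fold change 0.09, 95% confidence interval −0.05 to 0.22). Sox10 had 0.09, 0.14, 0.01 and −0.19, Pdgfra 0.12, 0.03, −0.13 and −0.15, and Cspg4 0.19, 0.08, −0.22 and −0.26. In Pdgfra and Cspg4 the arrays with HOE_APP in Cy5 were above 0 and those with HOE_APP in Cy3 below. Olig1, at 0.07, −0.04, −0.01 and −0.03, moved least.

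In the other myelin and mature genes the values under HOE-140 ran 1 way. All 18 expressed genes had a fitted value below 0, where 49.9% of all expressed probes did. Of the 18, 9 were below 0 on every array, as were 5.00% of the probes measured on all 4. Their median log2 fold change was −0.22, against 0.00 over all expressed probes, and the median on the 4 arrays was −0.13, −0.14, −0.21 and −0.32. None passed the adjusted test, and 12 had an unadjusted p below 0.05, as had 5.03% of all expressed probes (2.72% with a value below 0). Without replicate 1 or replicate 4 the number of these genes at such a p was 6. All 18 stayed below 0 without any of the 4 replicates. By SAM and rank products 10 of the 18 were called, as were 2.31% of probes. Mal, a proteolipid of compact myelin, was lowest at −0.46 (unadjusted p 0.00234, adjusted p 0.924 in limma). Cldn11, the claudin of the sheath's tight junctions, was at −0.25, Mobp at −0.25 and Trf at −0.23. With median centring in place of loess 16 of the 18 were below 0 and 2 had an unadjusted p below 0.05. The median of all expressed probes was then 0.08. Shares over all probes are not given for the fits without an array or with median centring.

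The other precursor and committed genes lay less far from 0. Of 19, 13 were below 0, the median was −0.08, and Gpr37 (−0.20) and Matn4 (−0.14) had an unadjusted p below 0.05. Gpr17 (−0.07), Nkx2-2 (−0.08), Sox8 (−0.12) and Ugt8a (−0.15) did not. Of all expressed probes 49.9% were below 0 and 5.03% had such a p. Under BK the other myelin genes had a median of −0.05 with 11 of 18 below 0 and none at an unadjusted p below 0.05. The other precursor genes had one of −0.03 with 12 of 19 below 0 and 1, Cacng4 (−0.20), at such a p. Of all expressed probes 52.6% were below 0 under BK and 4.47% had such a p. Other glial markers were also below 0 under HOE-140, with 10 of 10 astrocyte markers (median −0.11, 3 at an unadjusted p below 0.05) and 11 of 11 microglia markers (median −0.07, 1 at such a p). The mean level of the astrocyte markers ran from 12.11 to 12.38 in HOE_APP and from 12.21 to 12.49 in APP_WT, and that of the microglia markers from 9.06 to 9.47 and from 9.19 to 9.43. Their part in the myelin values was not tested.

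**Figure D3:**
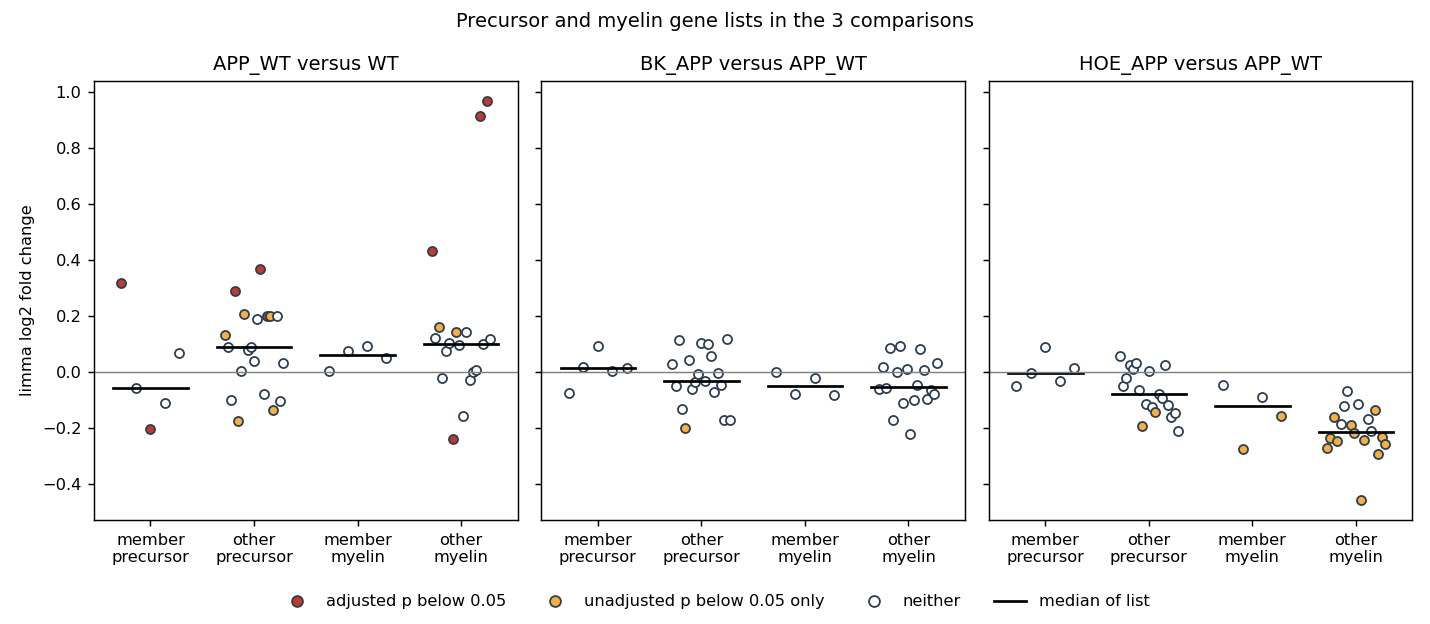
Limma log2 fold changes (y axis) of the members and of the other expressed precursor and myelin genes (x axis) in the 3 comparisons. Each point is a gene, filled by its test, and bars are medians. In HOE_APP versus APP_WT all 18 other myelin genes are below 0 and none passes the adjusted test, while in APP_WT versus WT 3 of them pass above 0 and 1 below.

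BK and HOE-140 act on the same receptor in opposite ways, so the difference between the 2 treatments was tested in the same model. No member passed the adjusted test, with a smallest unadjusted p of 0.0623 for Mag in limma, and 0% of expressed probes passed in limma while 2.50% had an unadjusted p below 0.05. The difference of Mag was 0.20, BK_APP minus HOE_APP, with a 95% confidence interval of −0.01 to 0.41. Within replicates 1 to 4 it was 0.16, 0.32, 0.05 and 0.25, above 0 in each. Mag was the only member with 1 sign in all 4. The share of all expressed probes with 1 sign there was not computed, so nothing particular to Mag is read from this count. The test takes the arrays as independent, without a term for the replicate number. With the replicate number as a block the SE of Mag stayed at 0.09, and no member passed. That block gave the APP_WT versus WT arrays the same sign as the treated ones, though the 2 correlated negatively. Its SE therefore cannot show what pairing does to this difference. A block signed for the shared APP_WT sample, added after seeing the data, called no member here. Over all expressed probes the same-numbered arrays of BK_APP and HOE_APP correlated positively. The intervals of this difference, which take the arrays as independent, are therefore likely too wide and its p-values too large, and how far was not tested. For Mog the difference was 0.07 (−0.09 to 0.24), for Olig2 0.00 (−0.18 to 0.19) and for Cspg4 −0.02 (−0.25 to 0.21). Over all members these intervals ran from a fold of 0.840 to one of 1.33. These values rest on the likely direction of HOE_APP. With its sign turned the difference was −0.35 for Mag (95% confidence interval −0.56 to −0.14, unadjusted p 0.0035 and adjusted p 0.603 in limma) and −0.24 for Mog (−0.40 to −0.08, unadjusted p 0.00844 and adjusted p 0.605 in limma). It was then 0.18 for Olig2 and −0.13 for Cspg4, and again no member passed the adjusted test. Turned in this way the difference is a sum of 2 values, for which the same positive correlation works the other way. The intervals of the turned difference, which take the arrays as independent, are therefore likely too narrow and its p-values too small.

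Set against each other, the 2 classes differed by little. In APP_WT versus WT the median log2 fold change was −0.06 for the precursor genes and 0.06 for the myelin genes, in BK_APP versus APP_WT 0.01 and −0.05, and in HOE_APP versus APP_WT 0.00 and −0.12. The median over all expressed probes was 0.00 in each. All of them share APP_WT, which is the numerator in the first and the denominator in the others, and no likeness or opposition between them is read as a result. On single arrays the precursor median minus the myelin median was 0.03, −0.10, −0.16 and −0.11 in APP_WT versus WT, 0.13, −0.02, 0.07 and 0.07 in BK_APP versus APP_WT, and 0.23, 0.22, −0.01 and 0.01 in HOE_APP versus APP_WT. In the last, both arrays with HOE_APP in Cy5 were well above 0 and both with HOE_APP in Cy3 were near 0. With median centring in place of loess the class medians were −0.24 and −0.07, 0.09 and 0.03, and 0.14 and −0.02. The sign of the myelin median thus turned in APP_WT versus WT and in BK_APP versus APP_WT. The median of all expressed probes moved in the same direction as the myelin median but less far, to −0.07, 0.04 and 0.08. The cause was not tested.

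**Figure D4:**
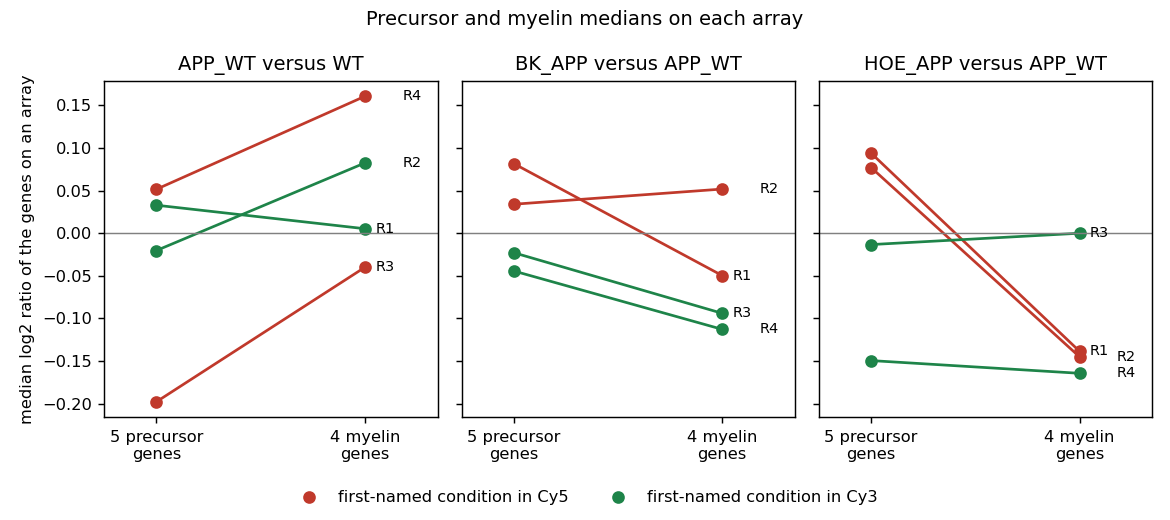
Median log2 ratio (y axis) of the 5 precursor and the 4 myelin genes (x axis) on each array of the 3 comparisons, joined by a line for each replicate and colored by the dye of the first-named condition. In HOE_APP versus APP_WT replicates 1 and 2 drop from the precursor to the myelin genes by 0.23 and 0.22, and replicates 3 and 4 stay nearly level.

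How far a single array can be read was seen from the 10 spots of the Pdgfra probe. Within an array the SD between these spots was 0.04 to 0.11, with a median of 0.07, and between the 4 arrays of a comparison the SD of their means was 0.05 to 0.13. In APP_WT versus WT the spots of replicate 3 ran from −0.30 to −0.08, all below 0, and those of replicate 4 from −0.03 to 0.17. In HOE_APP versus APP_WT all 10 spots were below 0 on replicates 3 and 4.

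The 3 probes of Mbp disagreed in sign. The brightest and the dim probe are annotated to 1 RefSeq transcript of the gene and the second to another. Whether the transcripts differ was not tested. In APP_WT versus WT the brightest was at 0.09 and the second at −0.13, where its arrays read −0.09, −0.28, −0.06 and −0.08, all below 0, at an adjusted p of 0.202 in limma. Under BK these probes were at −0.02 and 0.07 and under HOE-140 at −0.09 and 0.03. The remaining probe was dim and well above background in 0 of 4 WT, 3 of 12 APP_WT, 1 of 4 BK_APP and 3 of 4 HOE_APP channels, and its log2 fold changes of −0.01, −0.05 and 0.11 say little. The signs given for Mbp above are those of its brightest probe, and no direction of the gene is read from them.

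**Figure D5:**
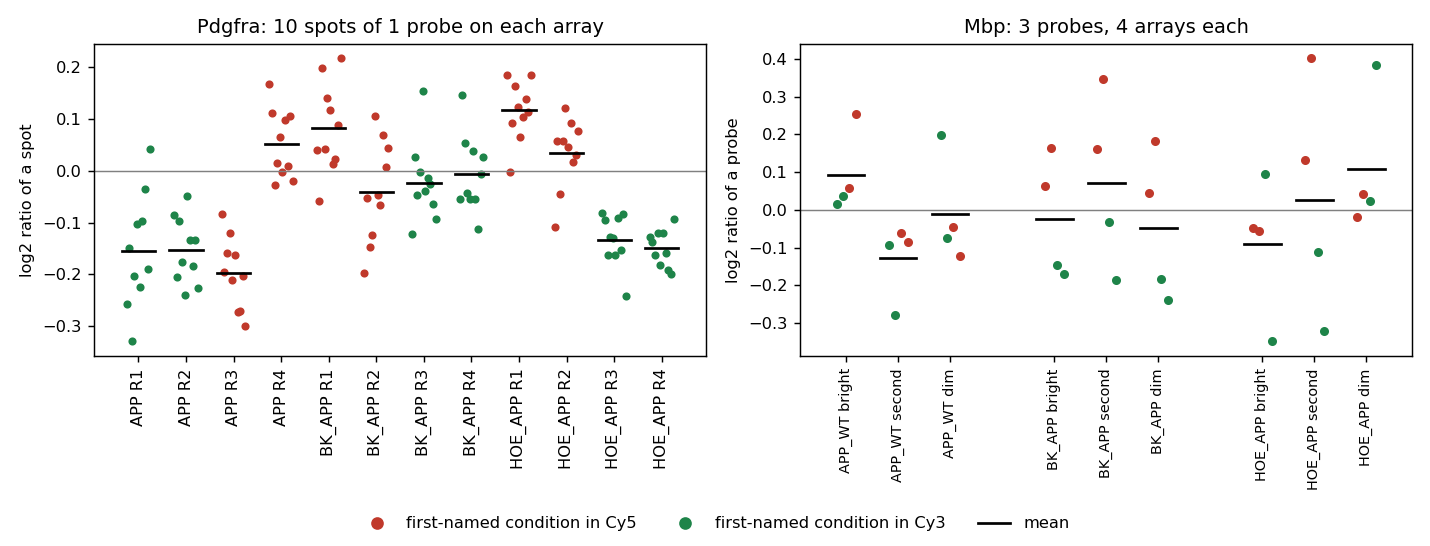
Left, log2 ratios (y axis) of the 10 Pdgfra spots on each of the 12 arrays (x axis), with the mean as a bar. Right, log2 ratios (y axis) of the 3 Mbp probes, named by brightness, on the 4 arrays of each comparison (x axis). Points are colored by the dye of the first-named condition, and the bright and second Mbp probes have means of opposite sign in each comparison.

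The genes most like each class over the 12 arrays, with the dye term removed, were sought among 14087 other named genes as a description. For the mean of the precursor genes they were Carmil1 (Pearson r 0.91), Snrnp35 (0.91), Poc1a (0.90), Srp54a (0.89) and Gtf3c4 (0.89). For the mean of the myelin genes they were Ifi27l2a (0.98), Csrnp1 (0.96), Irf7 (0.95), Nfkb1 (0.95) and Jam2 (0.94). The arrays share APP_WT and 2 slides, and the 5 highest of so many values are high by selection.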

How the data were processed

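The authors deposited the scanner output of 12 two-color Agilent arrays, with the median intensity of each spot and of its background in both channels, unnormalized, and processed intensities from the same software (Feature Extraction 11.0.1.1 per the file headers). They also deposited a table of log2 ratios, used as an alternative, and the software's log10 ratios, which served to identify that table. Intensities were corrected by normexp (offset 50) and loess (span 0.3) in limma 3.58.1 (R 4.3.3), control (3671 of 62976) and uneven spots were left out, spots of a probe were averaged, and ratios were turned to the first-named condition. Probes well above background in 1 condition on at least 3 of 4 arrays of a comparison numbered 29361. One model fitted every comparison with its own mean and dye term (6 residual degrees of freedom), with Benjamini-Hochberg adjustment over these probes. Accessions were named through RefSeq (GRCm38.p6), which named 27509 of 29150 probes with one. A gene with several probes is given by its brightest expressed probe. Channel levels are from loess and Aquantile. SAM and rank products were rewritten after the methods. The tests of the 3 comparisons, but not that of the difference between the treatments, were checked on simulated data. The simulated arrays were independent of each other, and the changes put in were larger than those of the members.

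The members, the gene lists and the rule for named genes (all members, 14 genes of the lists and the highest and lowest of each list in APP_WT versus WT) were chosen with earlier results of these data known. One gene that this rule names is not reported here. The methods name independent biological replicates. Same numbers also share a dye orientation, so pairing was checked on deviations from the mean of each orientation. Those of same-numbered arrays correlated at 0.42 to 0.43 between BK_APP and HOE_APP and at −0.51 to −0.20 between either and APP_WT versus WT, where APP_WT is the numerator, so the numbers were taken to pair the samples. With 2 arrays an orientation this rests on 2 independent values a pair of comparisons. The signs seen for HOE_APP are those that a shared APP_WT sample gives in the likely direction. Both would change if that direction were turned. APP_WT versus WT arrays lay on 1 slide and treated arrays on another, and no comparison spans both. The number of arrays limits the precision.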

Additional observations from a re-analysis of the deposited data

Results flagged for a closer look

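In 33 sets of 4 arrays (11 member probes in 3 comparisons) 4 had 1 array far from the rest by Dixon's test, and chance flags about 1 in 20 such sets. Cnp in HOE_APP versus APP_WT read 0.10 on replicate 3, with the nearest array at −0.08. The second Mbp probe in APP_WT versus WT read −0.28 on replicate 2, with the nearest at −0.09. The dim Mbp probe in HOE_APP versus APP_WT read 0.38 on replicate 4, with the nearest at 0.04. Mag in APP_WT versus WT read −0.25 on replicate 3, with the nearest at 0.14.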

How the results depend on the processing

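Cspg4 and Olig2 kept their direction in APP_WT versus WT in all 16 settings, and passed the test in 12 and 9 of them. Of the members, 2 were called there with limma, 3 with median centring (Pdgfra too, at −0.27), 1 each with the scanner's processed signals, the authors' table, no filter on dim probes, the replicate block or SAM and rank products, 0 in separate fits without a dye term, and 0 to 2 when 1 array was left out (0 without replicate 3). SAM and rank products called 1 member in HOE_APP versus APP_WT. No other setting called a member under a treatment. With the replicate block Olig2 had a limma adjusted p of 0.0625 and Cspg4 one of 0.0339, and the block changed no other call of a member. A block signed for the shared APP_WT sample was added after seeing the data: both genes passed, 8265 probes were called in APP_WT versus WT against 5446, and 3 were called in HOE_APP.

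All probes called in APP_WT versus WT numbered 1834 in separate fits without a dye term and 3529 by SAM and rank products, which called 535 in BK_APP and 676 in HOE_APP where limma called 0. Leaving out 1 array gave 0 to 62 called probes in BK_APP, with 62 without replicate 1, 0 to 9 in HOE_APP, with 9 without replicate 4, and 0 to 13 in their difference, with 13 without BK_APP replicate 1.

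Median centring in place of loess moved the class medians, to −0.24 and −0.067 (precursor and myelin) in APP_WT versus WT, 0.085 and 0.028 in BK_APP and 0.14 and −0.017 in HOE_APP, and left 2 other myelin genes and 0 other precursor genes at an unadjusted p below 0.05 in HOE_APP, with 8 of the latter below 0. It moved the median of all expressed probes to −0.07, 0.04 and 0.08. The cause was not tested. With the HOE_APP sign turned the myelin median there was 0.12, and BK_APP minus HOE_APP for Mag went from 0.20 to −0.35, with no member called. Other precursor genes at such a p in HOE_APP numbered 1 without a dye term, 4 with the signed block and 1 to 4 without an array, and other myelin genes 6 to 11 without an array. These counts were added after seeing the data. The difference between the treatments was not run by SAM and rank products or in separate fits, and class medians were not run under the blocks.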
